A study of Homo sapiens with 29 samples.

Results

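The 37 genes described here encode the chaperones, folding enzymes, degradation factors, channel subunits and sensors of the endoplasmic reticulum (ER) that make up or respond to the unfolded protein response. They were chosen by name, with earlier results of these data known, and all 37 are among the 13492 genes of the deposited table. RNA was measured in 29 xenograft tumors grown in mice from COLO320DM, an established line of human colon cancer cells that carries extra copies of MYC, by sequencing of polyA RNA. All libraries are labelled 48 h and carry no other genotype or agent in the labels. There were 10 libraries with vehicle, 8 with Helicon4neg at a dose of 30 mpk (Helicon4neg_30mpk), 6 with Helicon4 at 30 mpk (Helicon4_30mpk) and 5 with Helicon4 at 100 mpk (Helicon4_100mpk), where mpk is the labels' dose unit. The series title describes a helicon, a peptide held in a helix, directed at β-catenin and TCF, the transcription factors of the Wnt pathway. The labels do not say how Helicon4neg differs from Helicon4. Mice were dosed once tumors had reached a set size, which animal gave which library is not stated, and the host's stroma grew within each tumor. P values measure the spread between these libraries.

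Proteins bound for secretion or for membranes enter the ER through the Sec61 channel, fold with the help of HSP70 and HSP90 type chaperones, lectin chaperones and disulfide isomerases, and leave in COPII vesicles. When unfolded protein gathers in the lumen, the sensors IRE1 (ERN1), PERK (EIF2AK3) and ATF6 raise transcription of chaperone and degradation genes through the spliced form of XBP1, cleaved ATF6 and ATF4. Proteins that do not fold are passed back to the cytosol and destroyed by ER-associated degradation. Secretory tissue, the intestinal epithelium included, depends on the IRE1 and XBP1 arm.

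Promoter sequence was available for 33 of the 37 genes in the RefSeq table of build GRCh38.p14, as windows of 250 bases before to 50 bases after a start site. Several elements read by ATF6 and XBP1 were searched on both strands. They were the ER stress response element ERSE (CCAAT and CCACG separated by 9 bases of any kind), the element ERSE-II (ATTGG and CCACG separated by 1 base) and the unfolded protein response element UPRE (TGACGTGG). ERSE was found in 7 of the 33 genes (CALR, CANX, CRELD2, HSP90B1, HSPA5, PDIA6 and XBP1), or 21.2%, against 0.168% of 10146 genes of the table with a window. ERSE-II was found in 3 (HERPUD1, HYOU1 and SDF2L1), or 9.09%, against 0.148%. UPRE was found in 2 (DNAJC10 and HYOU1), or 6.06%, against 1.15%, and in HYOU1 it overlaps an ERSE-II. The amino acid response element TGATGNAA, bound by ATF4 with a C/EBP partner, was found in CREB3L2, HERPUD1 and PPP1R15B, or 9.09% of the 33 genes against 2.67%. The 37 genes were chosen as genes of this response, which these elements serve. A higher share among them was therefore set by the choice and is a description only. The 10146 genes also include the 33. The windows of 6 genes whose levels are described below, 3 with ERSE and 3 with ERSE-II, follow 5′ to 3′ in the direction of the gene, with ERSE, ERSE-II and UPRE matches in capitals.
HSPA5, chr9:125241294-125241593, minus strand: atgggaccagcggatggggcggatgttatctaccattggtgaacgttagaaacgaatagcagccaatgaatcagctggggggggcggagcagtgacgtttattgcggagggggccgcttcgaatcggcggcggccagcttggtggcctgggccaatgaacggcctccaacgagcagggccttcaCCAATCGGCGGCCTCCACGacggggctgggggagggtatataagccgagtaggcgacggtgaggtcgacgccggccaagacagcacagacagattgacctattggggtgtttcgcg
HSP90B1, chr12:103930160-103930459, plus strand: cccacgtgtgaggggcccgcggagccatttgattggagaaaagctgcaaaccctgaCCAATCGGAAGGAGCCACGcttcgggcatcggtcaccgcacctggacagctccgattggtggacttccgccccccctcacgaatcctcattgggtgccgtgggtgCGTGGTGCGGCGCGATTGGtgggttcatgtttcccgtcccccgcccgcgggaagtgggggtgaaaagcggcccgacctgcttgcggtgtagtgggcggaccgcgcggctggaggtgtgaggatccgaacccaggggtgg
XBP1, chr22:28800520-28800819, minus strand: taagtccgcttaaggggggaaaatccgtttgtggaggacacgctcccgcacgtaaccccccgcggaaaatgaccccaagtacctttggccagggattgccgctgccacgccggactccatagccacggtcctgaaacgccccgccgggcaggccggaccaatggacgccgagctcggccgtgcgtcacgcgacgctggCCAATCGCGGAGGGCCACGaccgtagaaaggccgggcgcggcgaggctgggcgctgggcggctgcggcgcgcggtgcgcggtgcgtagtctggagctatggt
HERPUD1, chr16:56931892-56932191, plus strand: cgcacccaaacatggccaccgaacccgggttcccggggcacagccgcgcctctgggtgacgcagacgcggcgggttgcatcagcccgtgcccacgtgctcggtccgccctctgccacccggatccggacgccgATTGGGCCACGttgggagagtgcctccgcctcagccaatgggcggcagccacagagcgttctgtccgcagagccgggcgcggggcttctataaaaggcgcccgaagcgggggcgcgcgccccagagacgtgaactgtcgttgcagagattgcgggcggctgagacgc
SDF2L1, chr22:21642052-21642351, plus strand: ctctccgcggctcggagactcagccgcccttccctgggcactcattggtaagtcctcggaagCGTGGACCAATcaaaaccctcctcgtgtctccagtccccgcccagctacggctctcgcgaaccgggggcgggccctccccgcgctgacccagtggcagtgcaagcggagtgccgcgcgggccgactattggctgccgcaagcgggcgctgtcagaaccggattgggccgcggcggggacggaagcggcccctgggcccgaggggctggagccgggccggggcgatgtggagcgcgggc
HYOU1, chr11:119057156-119057455, minus strand: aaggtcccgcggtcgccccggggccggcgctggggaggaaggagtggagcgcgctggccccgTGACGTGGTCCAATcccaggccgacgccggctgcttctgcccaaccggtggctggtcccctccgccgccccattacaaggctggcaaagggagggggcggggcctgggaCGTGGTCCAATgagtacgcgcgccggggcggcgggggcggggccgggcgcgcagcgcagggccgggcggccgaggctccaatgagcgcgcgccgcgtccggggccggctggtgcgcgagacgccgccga

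In HSPA5 the element begins 66 bases before the start site and reads on the gene's own strand. HSP90B1 holds 2 elements on opposite strands, and in SDF2L1 and HYOU1 the ERSE-II matches lie on the strand opposite to the gene. Of the 7 genes with ERSE, 5 were called lower by limma with Helicon4_100mpk than with vehicle (15.9% of all genes tested and 16 of the 37 were), 2 with Helicon4_30mpk (5.22% and 10) and 3 with Helicon4_30mpk against Helicon4neg_30mpk (7.31% and 15). No match was found in the windows of ERN1, WFS1, DNAJB11, PDIA4 or SEC61A1, which says only that these letters are not there.

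**Figure D1:**
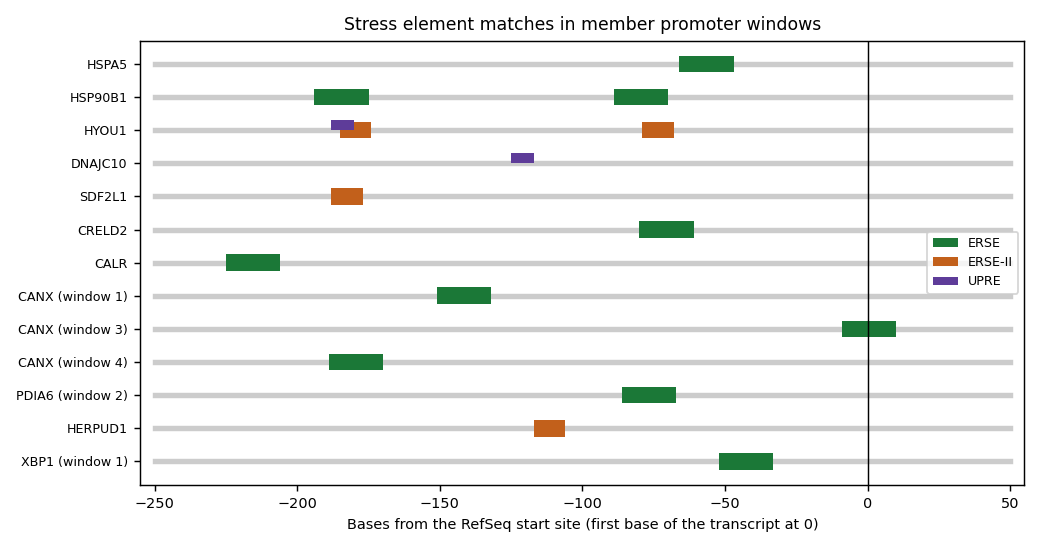
Matches to ERSE, ERSE-II and UPRE in the promoter windows of 11 genes, drawn by distance in bases from the start site. Grey lines are windows of 250 bases before to 50 bases after the start; where a gene has several windows, each window with a match is drawn.

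Depth was 26.8 to 61.6 M reads per library. The fewest reads of any of the 37 genes in a library were 98, for EDEM3 in Helicon4neg_30mpk library 2. Values are read counts scaled by the authors to the effective size of each library, called CPM here, and differences are on the log2(CPM + 1) scale with their standard error. In Helicon4neg_30mpk library 2 and vehicle library 6, levels relative to each gene's mean over all libraries fell most steeply with gene length. Their slopes were -0.32 and -0.18 (log2 level per unit of log2 length), against -0.13 or above in the others. Vehicle libraries 4 and 8, at -0.13, lay near vehicle library 6. Over 20 exact permutation tests of depth, mitochondrial share, host marker level and length slope the smallest p was 0.0450 (two-sided, adjusted p = 0.573), for the length slope of Helicon4_30mpk against vehicle. Of 7 marker genes of the labelled cell line, 5 were measured, with MYC at 3727 to 8037 CPM over all libraries, and CDH1 and VIL1 were not analysed here. CDX2, the intestinal transcription factor among them, moved in the same directions as the ER genes called below in 3 comparisons, with no call at 30 mpk against vehicle, and its part in those results was not tested. It was at 2049 to 3944 CPM with vehicle, 3382 to 4783 with Helicon4neg_30mpk, 2394 to 3066 with Helicon4_30mpk and 1602 to 2548 with Helicon4_100mpk. CDX2 rose by 0.40 with Helicon4neg_30mpk (limma adjusted p = 0.0257), fell by 0.59 with Helicon4_100mpk (adjusted p = 0.000645) and differed by -0.63 between the compounds at 30 mpk (adjusted p = 0.000543). In bulk tumors a change in the mixture of cells and a change of RNA per cell cannot be told apart. The titles also carry codes (SH7078 to SH7084) that follow the groups: no code holds vehicle together with Helicon4, so code and compound can be told apart only through Helicon4neg_30mpk, which shares SH7080 with 2 vehicle libraries and SH7081 with 1 library of Helicon4_30mpk.

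Taken per kilobase of transcript in the vehicle tumors, HSP90B1 was the most abundant of the 37 genes at 333 CPM per kilobase, followed by HSPA5 at 233, the oligosaccharyltransferase subunit OSTC at 190 and the lectin chaperone CALR at 175. XBP1, at 126 CPM per kilobase, was the only transcription factor among the first 5. The sensor ERN1 stood at 4.12 CPM per kilobase, EDEM3 at 2.4 and the COPII subunit SEC24D lowest at 2.26.

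Most of the 37 genes had their lowest mean with Helicon4 and their highest with Helicon4neg. By group means, 27 of 37 were highest with Helicon4neg_30mpk, where 27.9% of all genes tested were highest, and 0 of 37 were highest with Helicon4_30mpk, against 14.1% of all genes. Helicon4_100mpk held the lowest mean of 18 and Helicon4_30mpk of 13, against 33.6% and 16.1% of all genes. These orders are a description, since the genes were chosen with earlier results of these libraries known.

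Helicon4_100mpk against vehicle asks what the higher dose does. Of the 37 genes 16 fell and 0 rose by limma at an adjusted p under 0.05, where 15.9% of 13373 genes fell and 14.3% rose, 30.2% in all. At an unadjusted p under 0.05, 18 were lower and 0 higher. edgeR and DESeq2 on the recovered reads called 15 and 17 lower and 0 higher. The median difference was -0.27, against 0.01 over all genes. In 7 genes all 5 libraries lay below all 10 vehicle libraries (DNAJB11, SDF2L1, PDIA4, SEC61A1, ERN1, XBP1 and WFS1), which 4.13% of all genes did, and in 0 genes did all lie above, as in 4.67% of all genes. At Helicon4_30mpk 10 fell and 0 rose, where 5.22% of all genes fell and 5.86% rose, 11.1% in all, with a median of -0.19 and 16 lower and 0 higher at an unadjusted p under 0.05. edgeR and DESeq2 called 9 and 11 lower and 0 higher there. In 4 genes all 6 libraries at 30 mpk lay below all vehicle libraries (DNAJB11, PDIA3, SEC61A1 and ERN1), against 2.39% of all genes, and in 0 above, against 1.96%. Both doses share the vehicle libraries. The 9 genes called at both were HSPA5, HSP90B1, DNAJB11, SDF2L1, PDIA3, PDIA4, SEC61A1, ERN1 and WFS1.

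Helicon4neg_30mpk against vehicle gave mostly the opposite sign, with 28 of the 37 differences positive and 9 negative. In DNAJB11, CRELD2, EDEM2 and DERL1 7 of 8 libraries lay below the vehicle median. In this comparison 5 genes rose (HSPA5, HERPUD1, ERN1, CREB3L2 and WFS1) and 0 fell, where 2.21% of all genes rose and 2.62% fell, 4.84% in all, and the median was 0.09. Of these 5 genes, 3 (HSPA5, ERN1 and WFS1) were also called lower at both doses of Helicon4. At an unadjusted p under 0.05, 9 were higher and 0 lower, and edgeR and DESeq2 called 5 and 7 higher and 0 lower. No gene of the 37 separated all 8 libraries from all vehicle libraries, as 0.307% of all genes did on the lower and 0.202% on the higher side. In the direct comparison of the compounds at 30 mpk, 15 genes were lower with Helicon4 than with Helicon4neg and 0 higher, where 7.31% of all genes were lower and 7.78% higher, 15.1% in all. The median was -0.30, with 23 lower and 0 higher at an unadjusted p under 0.05, and edgeR and DESeq2 called 17 and 18 lower and 0 higher. In 7 genes all 6 Helicon4_30mpk libraries lay below all 8 Helicon4neg_30mpk libraries (HSPA5, HSP90B1, HERPUD1, EDEM1, SEC61A1, ERN1 and WFS1), against 3.32% of all genes, and in 0 above, against 3.78%. Of the 15, 10 were also lower than vehicle at 30 mpk, and DNAJC3, HERPUD1, SEC24D, XBP1 and PPP1R15A were not called there.

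**Figure D2:**
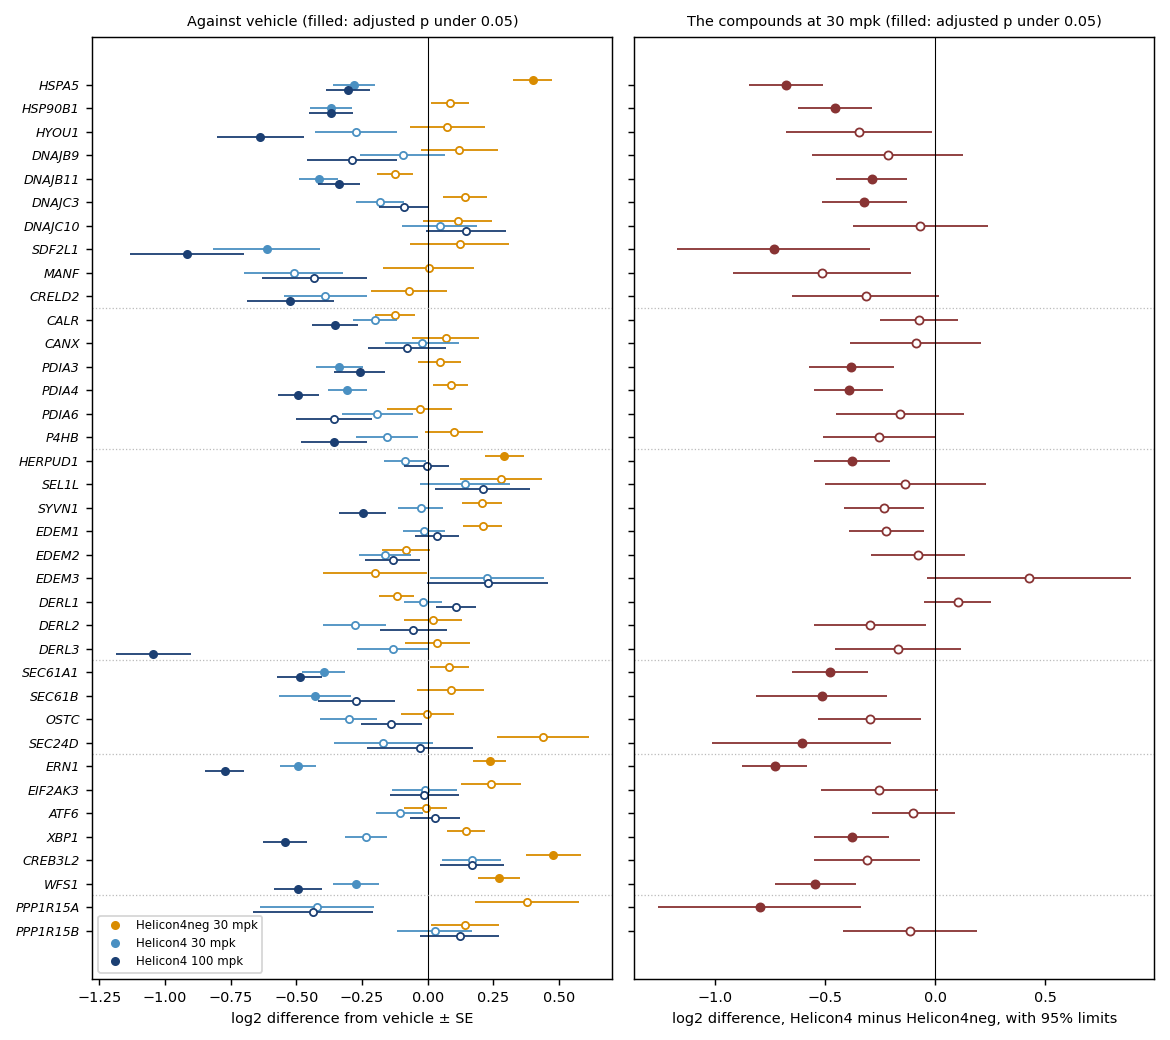
Log2 differences of the 37 genes, ordered by role with dotted lines between roles. On the left each compound and dose is set against vehicle (± SE), on the right Helicon4_30mpk against Helicon4neg_30mpk (95% limits), with filled points where the limma adjusted p was under 0.05; Helicon4 points lie mostly left of 0 and Helicon4neg points mostly right of it.

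These counts depended on how the title codes were treated. With the code as a block, the counts of genes lower fell to 0 at both doses against vehicle and to 2 between the compounds (HSPA5 and ERN1), and the count higher with Helicon4neg to 0, with 1, 3, 10 and 6 genes at an unadjusted p under 0.05 in those directions. Few genes of the whole table passed in that fit: 0.501% were lower at 100 mpk, 0.322% at 30 mpk and 0.74% between the compounds, and 0.00748% were higher with Helicon4neg_30mpk. Its differences at 100 mpk were -0.54 ± 0.30 for HSPA5, -0.52 ± 0.30 for HSP90B1, -1.05 ± 0.57 for HYOU1 and -0.79 ± 0.25 for ERN1, with larger standard errors than without the block. In that fit the comparisons of Helicon4 with vehicle run only through Helicon4neg_30mpk. These and the comparison of the compounds rest on 1 Helicon4_30mpk library, in SH7081. The sign stayed the same for 14 of 16, 9 of 10, 15 of 15 and 5 of 5 of the genes called. That is a description only, since the genes were called in the same libraries. Without Helicon4neg_30mpk library 2 and vehicle library 6, 18, 16 and 22 genes were lower at 100 mpk, at 30 mpk and between the compounds, and 7 were higher with Helicon4neg_30mpk, where 20.8%, 8.51% and 9.68% of all genes were lower and 7.45% higher. Leaving out Helicon4neg_30mpk library 2 alone added SEL1L, SYVN1, EDEM1, SEC24D, EIF2AK3 and PPP1R15B to those higher with Helicon4neg_30mpk and made DNAJB11 lower there. Between the compounds it added HYOU1, PDIA6, P4HB, SYVN1, EDEM1, EIF2AK3 and CREB3L2. Below, calls are those of limma with all libraries unless another setting is named.

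Among the 10 luminal HSP70 and HSP90 chaperones and their cofactors, 6 fell with Helicon4_100mpk and 4 with Helicon4_30mpk (15.9% and 5.22% of all genes). HSPA5 encodes BiP, the HSP70 of the ER lumen that also holds the stress sensors inactive. With vehicle it ranged from 781 to 1007 CPM around a median of 913, and with Helicon4neg_30mpk from 1002 to 1482 around 1183. With Helicon4_30mpk it ranged from 697 to 794 around 760. The 5 Helicon4_100mpk libraries had 710, 798, 644, 764 and 770 CPM. Helicon4neg_30mpk was thus high, with 7 of 8 libraries above the whole vehicle range, and Helicon4 low at either dose, with the 2 compounds not overlapping. HSPA5 rose by 0.40 ± 0.07 with Helicon4neg_30mpk (limma adjusted p = 0.00148, 1.32-fold). It fell by 0.28 ± 0.08 with Helicon4_30mpk (adjusted p = 0.0190) and by 0.30 ± 0.08 with Helicon4_100mpk (adjusted p = 0.00687). Between the compounds at 30 mpk the difference was -0.68 ± 0.08 (adjusted p = 4.21e-07). That HSPA5 moves in opposite directions with the 2 compounds was known when the genes were chosen. These p values therefore describe that movement and are not an independent test of it. The 100 mpk and 30 mpk doses differed by -0.02, with 95% limits of -0.21 to 0.17. The fall at 30 mpk lost its call without Helicon4_30mpk library 1 (-0.26, adjusted p = 0.0637) or library 3 (-0.26, 0.0549), and with the replicate number as a block (-0.21, 0.106).

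Within title codes HSPA5 was 0.26 higher with Helicon4neg_30mpk than with vehicle (SH7080, 5 and 2 libraries) and differed by -0.78 between the single Helicon4_30mpk library and 3 Helicon4neg_30mpk libraries (SH7081). Blocking on the code gave a rise of 0.26 (limma adjusted p = 0.285) and the difference between the compounds -0.78 (adjusted p = 0.0319). The latter rests on that single Helicon4_30mpk library.

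HSP90B1 encodes GRP94, the HSP90 of the ER. Its vehicle libraries ranged from 1285 to 1698 CPM around 1617, and its Helicon4neg_30mpk libraries from 1384 to 1924 around 1667. Helicon4_30mpk gave 1113 to 1301 around 1218. The Helicon4_100mpk libraries had 1122, 1340, 1100, 1344 and 1150 CPM. Both doses of Helicon4 were low and overlapped only the lowest vehicle library, and Helicon4neg_30mpk overlapped vehicle. HSP90B1 fell by 0.37 ± 0.08 at both doses (limma adjusted p = 0.00126 at 100 mpk and 0.00153 at 30 mpk), and differed by 0.09 ± 0.07 with Helicon4neg_30mpk (adjusted p = 0.559).

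**Figure D3:**
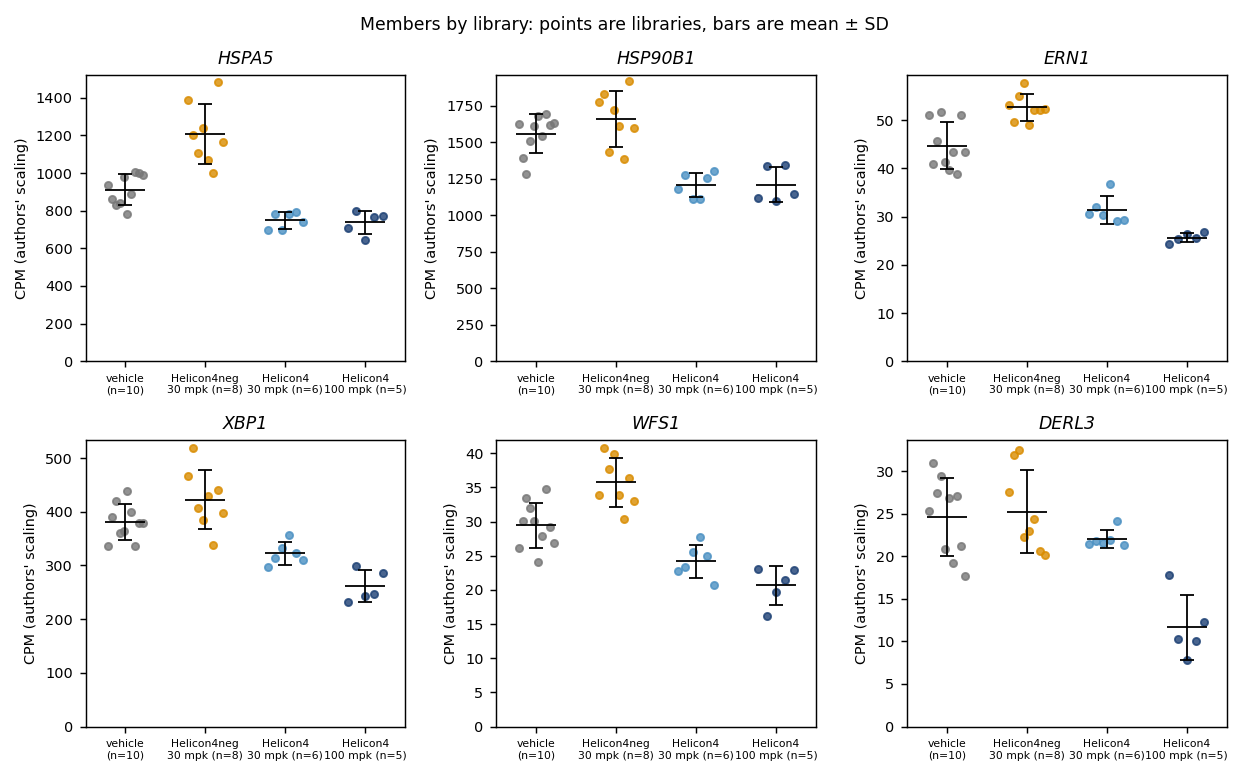
CPM of 6 of the genes in every library, with group mean and SD. HSPA5, ERN1 and WFS1 were high with Helicon4neg_30mpk and low at both doses of Helicon4, HSP90B1 was low at both doses, XBP1 was lowest at 100 mpk, and DERL3 was low at 100 mpk alone.

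DNAJB11 (ERdj3), an HSP40 cofactor that hands clients to BiP, had a vehicle range of 153 to 207 CPM. Its Helicon4_30mpk range was 114 to 146 and its Helicon4_100mpk libraries had 128, 149, 140, 148 and 137 CPM, all below vehicle. It fell by 0.41 ± 0.08 (limma adjusted p = 0.000216) and 0.34 ± 0.08 (adjusted p = 0.00182). HYOU1 (GRP170), a nucleotide exchange factor for BiP, fell by 0.64 ± 0.16 with Helicon4_100mpk (adjusted p = 0.00382), from a mean of 206 ± 38.4 CPM (SD, n = 10) to 132 ± 28 (n = 5). SDF2L1, a luminal protein that works with ERdj3, had vehicle values of 33.4 to 70.2 CPM around 52.6. At 100 mpk its values were 28.1, 22.9, 20.5, 25.8 and 27.9 CPM, below every vehicle library. SDF2L1 fell by 0.92 ± 0.22 at 100 mpk (adjusted p = 0.00177) and by 0.61 ± 0.20 at 30 mpk (adjusted p = 0.0497), the latter lost without any 1 of 12 of 16 libraries (adjusted p up to 0.151, without Helicon4_30mpk library 1). Blocking on title code, its differences from vehicle were positive, at 0.19 and 0.05 (limma adjusted p = 0.923 and 0.992). That fit reaches vehicle through SH7080, where SDF2L1 was 0.79 higher with Helicon4neg_30mpk than with vehicle. Library 2 of Helicon4neg_30mpk, which carries this code, had 134 CPM, against 59.5 in the next highest library of its group. Its part in the reversal was not tested.

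CRELD2, a stress-induced ER protein, fell by 0.52 ± 0.17 at 100 mpk (limma adjusted p = 0.0175), and that call was lost without Helicon4_100mpk library 3 (-0.46, 0.0655). Its difference was 0.35 when blocked on title code (limma adjusted p = 0.831). Within SH7080 CRELD2 was 0.48 higher with Helicon4neg_30mpk than with vehicle, with library 2 at 74.8 CPM against 38.8 in the next highest of its group. MANF, a secreted factor released from stressed ER, had differences of -0.43 and -0.51 at the higher and lower dose without a call (adjusted p = 0.104 and 0.0808). In Helicon4neg_30mpk library 2 MANF stood at 306 CPM, against 76.8 to 123 in the other libraries of its group. Without that library and vehicle library 6, MANF was lower at both doses (-0.37, adjusted p = 0.0124, and -0.45, adjusted p = 0.00436). DNAJC3 (p58IPK), a cofactor of BiP, was lower with Helicon4_30mpk than with Helicon4neg_30mpk by 0.32 (adjusted p = 0.0188; 0.0528 with a replicate block) and had no call against vehicle. DNAJB9 (ERdj4) and DNAJC10 (ERdj5) had no call in any comparison, with means of 13.2 to 18.3 and 113 to 124 CPM over the 4 groups.

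Of the 6 lectin chaperones and disulfide isomerases 4 fell at 100 mpk and 2 at 30 mpk (15.9% and 5.22% of all genes). PDIA4 (ERp72) ranged from 244 to 339 CPM with vehicle and from 224 to 280 with Helicon4_30mpk. Its Helicon4_100mpk libraries had 198, 184, 194, 232 and 242 CPM, all below vehicle. The fall was 0.49 ± 0.08 at 100 mpk (limma adjusted p = 1.35e-05) and 0.31 ± 0.07 at 30 mpk (adjusted p = 0.00470). The doses differed by -0.19, with 95% limits of -0.36 to -0.01, which did not pass (adjusted p = 0.248). CALR, the calreticulin that binds glycoproteins in the lumen, fell at 100 mpk by 0.35 ± 0.09 (adjusted p = 0.00291), from 475 ± 52.1 CPM (SD, n = 10) to 374 ± 60.9 (n = 5). Its membrane-bound counterpart CANX differed by -0.08 ± 0.15, from 554 ± 85.7 to 523 ± 76.2 CPM, with no call.

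PDIA3 (ERp57), the isomerase that serves the lectin chaperones, fell by 0.34 ± 0.09 at 30 mpk (limma adjusted p = 0.0122), where all 6 libraries (221 to 257 CPM) lay below all 10 vehicle libraries (266 to 354 CPM). Its fall of 0.26 ± 0.10 at 100 mpk (adjusted p = 0.0394) was lost without any 1 of 8 of 15 libraries (adjusted p up to 0.114, without Helicon4_100mpk library 1), and with edgeR (0.0510). P4HB, the most studied disulfide isomerase, fell by 0.36 ± 0.13 at 100 mpk (adjusted p = 0.0324), a call lost without any 1 of 5 of 15 libraries (adjusted p up to 0.148, without Helicon4_100mpk library 2) and with a replicate block (0.0745). PDIA6 differed by -0.36 ± 0.14 at 100 mpk (adjusted p = 0.0592). It passed with DESeq2 (-0.35, 0.0365), and by limma in the fit of 2 groups (-0.36, 0.0270), without vehicle library 6 (-0.41, 0.0270) or without Helicon4_100mpk library 4 (-0.42, 0.0442). Between the compounds PDIA6 differed by -0.16 with no call, and by -0.30 without Helicon4neg_30mpk library 2 (adjusted p = 0.0294).

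Of the 9 genes of ER-associated degradation 2 fell at 100 mpk, where 15.9% of all genes fell, and 0 fell at 30 mpk, where 5.22% did, counts near those shares (1 at an unadjusted p under 0.05, and 0 by edgeR and DESeq2). HERPUD1, a membrane protein that recruits the degradation complex, ranged from 142 to 221 CPM with vehicle and from 181 to 243 with Helicon4neg_30mpk. Helicon4_30mpk ranged from 150 to 168, and the Helicon4_100mpk libraries had 178, 181, 165, 161 and 158 CPM. Helicon4neg_30mpk was high, and the Helicon4 groups lay inside the vehicle range. HERPUD1 rose by 0.29 ± 0.07 with Helicon4neg_30mpk (limma adjusted p = 0.0179) and differed from vehicle by -0.00 at 100 mpk (95% limits -0.18 to 0.17) and by -0.09 at 30 mpk (-0.25 to 0.08). Within SH7080 its rise was 0.07. SYVN1 (HRD1), the ubiquitin ligase of the complex, fell by 0.25 ± 0.09 at 100 mpk (adjusted p = 0.0363), a call lost without any 1 of 7 of 15 libraries (adjusted p up to 0.136, without Helicon4_100mpk library 2). Its partner SEL1L had no call with all libraries, with group means of 53.3 to 65.0 CPM, and was higher with Helicon4neg_30mpk without library 2 of that group (0.42, adjusted p = 0.0278).

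DERL3, a derlin that is most abundant in secretory cells, ranged from 17.7 to 31 CPM with vehicle, from 20.1 to 32.4 with Helicon4neg_30mpk and from 21.3 to 24.2 with Helicon4_30mpk. The 5 Helicon4_100mpk libraries had 17.8, 10.3, 7.82, 10.0 and 12.3 CPM. All of them lay below Helicon4_30mpk, and 4 lay below every vehicle library. DERL3 fell by 1.04 ± 0.14 at 100 mpk (limma adjusted p = 1.35e-06) and differed by -0.13 ± 0.13 at 30 mpk (adjusted p = 0.542). The doses differed by -0.91 ± 0.16 (adjusted p = 0.000866), the only call among the 37 genes between the doses, where 1.86% of all genes were lower and 1.74% higher at 100 mpk, 3.6% in all. At an unadjusted p under 0.05, 6 were lower and 0 higher, and edgeR and DESeq2 called 2 and 3 lower. The doses did not overlap in DERL3 and ERN1, both lower at 100 mpk, against 1.71% of all genes, and in 0 genes was 100 mpk above, against 2.21%. DERL1 and DERL2 had no call, with differences at 100 mpk of 0.11 and -0.06. Within SH7083 the 4 Helicon4_100mpk libraries differed by -0.90 from the single Helicon4_30mpk library, and blocking on title code gave a difference between the doses of -0.90 (adjusted p = 0.469).

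DERL3 is also among 7 plasma cell markers, of which JCHAIN, MZB1 and SDC1 were measured as well and the other 3 were not analysed here. The summed level of the 4 was 85.9 to 130 CPM with vehicle and 88.4 to 150 with Helicon4neg_30mpk. It was 75.1 to 98.3 with Helicon4_30mpk and 55.3 to 76.5 with Helicon4_100mpk. Most of that sum was SDC1, at 63.2 to 93.6 CPM with vehicle, and DERL3 itself is part of it. All 4 were called lower at 100 mpk, and 1 of the 4 was called lower with Helicon4neg_30mpk. The defining markers were low, with JCHAIN at 2.71 and MZB1 at 3.20 CPM in the vehicle mean, and their part in the fall of DERL3 was not tested. MZB1, itself an ER cofactor, fell by 1.18 at 100 mpk (limma adjusted p = 2.52e-06) and was lower at 100 than at 30 mpk by 0.91 (adjusted p = 0.00371). EDEM1, EDEM2 and EDEM3, which act on glycoproteins in ER-associated degradation, had no call. EDEM1 in all 6 Helicon4_30mpk libraries (42.6 to 50.1 CPM) lay below the 8 Helicon4neg_30mpk libraries (51.8 to 61.4 CPM), with a difference of -0.22 (adjusted p = 0.0680).

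Of the 4 genes of entry, glycosylation and exit, 1 fell at 100 mpk, 2 fell at 30 mpk and 3 were lower with Helicon4_30mpk than with Helicon4neg_30mpk. Of all genes 15.9%, 5.22% and 7.31% were lower in these comparisons, so the count at 100 mpk is near the share of all genes. SEC61A1, which forms the pore of the translocation channel, ranged from 414 to 566 CPM with vehicle and from 390 to 631 with Helicon4neg_30mpk. Helicon4_30mpk ranged from 320 to 380, and the Helicon4_100mpk libraries had 374, 310, 314, 351 and 335 CPM. No Helicon4 library at either dose reached the lowest vehicle or Helicon4neg_30mpk library. The fall was 0.49 ± 0.09 at 100 mpk (limma adjusted p = 6.61e-05) and 0.40 ± 0.08 at 30 mpk (adjusted p = 0.000912). SEC61B, a small subunit of the channel, fell by 0.43 ± 0.14 at 30 mpk (adjusted p = 0.0418), a call lost without any 1 of 10 of 16 libraries (adjusted p up to 0.144, without Helicon4_30mpk library 1). OSTC differed by -0.30 at 30 mpk with no call (adjusted p = 0.0762). SEC24D was lower with Helicon4_30mpk than with Helicon4neg_30mpk by 0.61 ± 0.20 (adjusted p = 0.0360), lost without any 1 of 11 of 14 libraries (adjusted p up to 0.0921). Without Helicon4neg_30mpk library 2, where SEC24D stood at 10.6 CPM against 28.1 or more in its group, it was higher with Helicon4neg_30mpk than with vehicle (0.64, adjusted p = 0.000544).

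Among the 6 sensors, transcription factors and ER membrane genes, ERN1 fell at both doses. It encodes IRE1, the kinase and nuclease that splices XBP1 mRNA. With vehicle it ranged from 38.9 to 51.7 CPM around 43.4, and with Helicon4neg_30mpk from 49.1 to 57.8 around 52.2. With Helicon4_30mpk it ranged from 29.1 to 36.8 around 30.5. The Helicon4_100mpk libraries had 24.3, 25.4, 26.3, 25.5 and 26.8 CPM. Every Helicon4 library lay below every vehicle library, and every 100 mpk library below every 30 mpk library. Only the upper vehicle libraries reached the Helicon4neg_30mpk range. ERN1 fell by 0.77 ± 0.07 at 100 mpk (limma adjusted p = 1.59e-09) and by 0.49 ± 0.07 at 30 mpk (adjusted p = 5.11e-06), and rose by 0.24 ± 0.06 with Helicon4neg_30mpk (adjusted p = 0.0260). The rise lost its call without vehicle library 5 (0.22, 0.0517), Helicon4neg_30mpk library 3 (0.23, 0.0522) or library 4 (0.22, 0.0726), and within SH7080 it was 0.16. The compounds differed by -0.73 ± 0.07 at 30 mpk (adjusted p = 8.7e-09). Blocked on title code the difference was -0.75 (adjusted p = 0.0103). That value rests on SH7081 alone, with 1 Helicon4_30mpk library against 3 of Helicon4neg_30mpk. The doses differed by -0.28 ± 0.08, just outside the threshold (adjusted p = 0.0506), and within it without Helicon4_30mpk library 6 (-0.30, 0.0453) or Helicon4_100mpk library 5 (-0.29, 0.0499).

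XBP1, the transcription factor made active by that splicing, ranged from 336 to 438 CPM with vehicle, from 337 to 519 with Helicon4neg_30mpk and from 297 to 358 with Helicon4_30mpk. The Helicon4_100mpk libraries had 231, 298, 244, 247 and 287 CPM. All of these lay below vehicle, while Helicon4_30mpk overlapped it. XBP1 fell by 0.54 ± 0.08 at 100 mpk (limma adjusted p = 1.14e-05). At 30 mpk it differed by -0.24 ± 0.08, just outside the threshold (adjusted p = 0.0525), and passed without vehicle library 1 (-0.25, 0.0345), vehicle library 8 (-0.26, 0.0386) or Helicon4_30mpk library 4 (-0.27, 0.0415). Counts per gene do not separate spliced from unspliced XBP1 mRNA.

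WFS1, wolframin, an ER membrane protein induced by the stress response, ranged from 24.1 to 34.7 CPM with vehicle, from 30.4 to 40.7 with Helicon4neg_30mpk and from 20.7 to 27.8 with Helicon4_30mpk. At 100 mpk it had 23.1, 16.1, 19.7, 21.4 and 22.9 CPM, below every vehicle library. WFS1 fell by 0.49 ± 0.09 at 100 mpk (limma adjusted p = 0.000129) and the compounds differed by -0.54 ± 0.09 at 30 mpk (adjusted p = 6.22e-05). Its fall of 0.27 ± 0.09 at 30 mpk (adjusted p = 0.0392) was lost without any 1 of 10 of 16 libraries (adjusted p up to 0.113, without Helicon4_30mpk library 6). The rise of 0.27 ± 0.08 with Helicon4neg_30mpk (adjusted p = 0.0422) was lost without any 1 of 13 of 18 libraries (adjusted p up to 0.106, without Helicon4neg_30mpk library 4) and with a replicate block (0.0812).

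CREB3L2, a membrane-bound transcription factor of secretory cells, rose by 0.48 ± 0.10 with Helicon4neg_30mpk (limma adjusted p = 0.00602), from 39.3 ± 5.50 CPM (SD, n = 10) to 55.7 ± 11 (n = 8). Within SH7080 its rise was 0.20. CREB3L2 differed by -0.31 between the compounds (adjusted p = 0.0754), and by -0.40 without Helicon4neg_30mpk library 2 (adjusted p = 0.00470). Its differences with Helicon4 were 0.17 at both doses, with no call. The sensors EIF2AK3 and ATF6 had no call by limma with all libraries. Without Helicon4neg_30mpk library 2, EIF2AK3 was higher with Helicon4neg_30mpk than with vehicle (0.33, adjusted p = 0.0289) and lower with Helicon4_30mpk than with Helicon4neg_30mpk (-0.34, adjusted p = 0.0456). EIF2AK3 differed from vehicle by -0.01 at both doses, with 95% limits of -0.28 to 0.26 at 100 mpk, and ATF6 by 0.03, with limits of -0.17 to 0.22. The 95% limits of ERN1 at 100 mpk were -0.92 to -0.62, and the difference between the sensors was not tested.

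PPP1R15A and PPP1R15B encode the subunits that direct a phosphatase to eIF2α and so restore translation. PPP1R15A, the induced form (GADD34), ranged from 29.8 to 127 CPM with vehicle, where library 4 stood far above the rest, and from 41.1 to 82.5 with Helicon4neg_30mpk. With Helicon4_30mpk it ranged from 32.6 to 44.7, and at 100 mpk it had 34.1, 26.6, 27.6, 58.4 and 37.2 CPM. It was lower with Helicon4_30mpk than with Helicon4neg_30mpk by 0.80 ± 0.23 (limma adjusted p = 0.0146). Without vehicle library 4 it was higher with Helicon4neg_30mpk than with vehicle (0.53, adjusted p = 0.0466; 0.38 and 0.295 with it). PPP1R15B, the constant form, had no call with all libraries, at group means of 80.2 to 89.9 CPM. Its difference with Helicon4neg_30mpk was 0.14, and 0.28 without library 2 of that group (adjusted p = 0.0333).

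**Figure D4:**
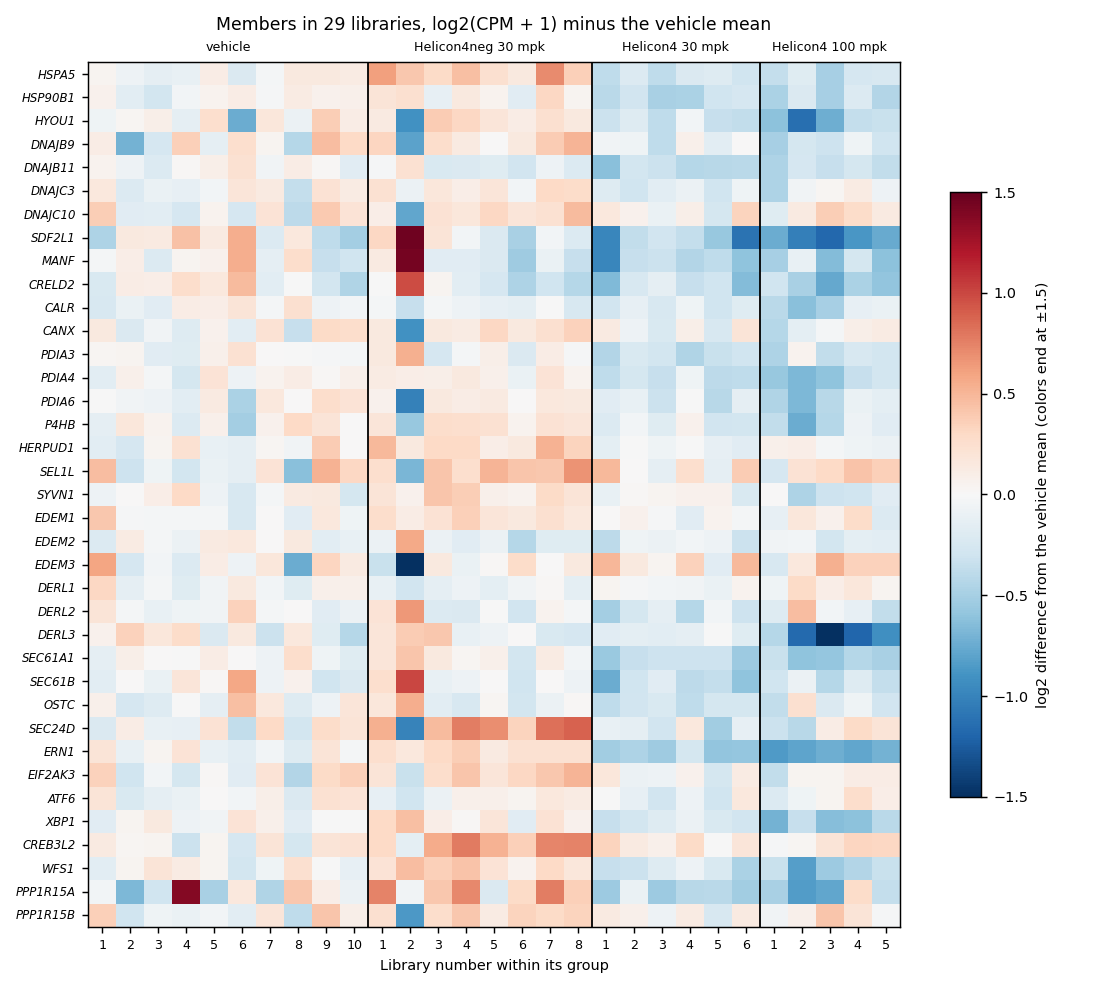
Log2(CPM + 1) of the 37 genes in each of the 29 libraries, minus the mean of the vehicle libraries. Blue is lower and red higher; the ERN1 row is blue in every Helicon4 library, the DERL3 row in the 100 mpk libraries, and the column of Helicon4neg_30mpk library 2 differs from its group in both directions.

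Genes of the same pathways outside the 37 were read from 5 further lists. Of 35 other folding and redox factors 9 fell and 1 rose at 100 mpk (15.9% and 14.3% of all genes), 8 fell and 0 rose at 30 mpk (5.22% and 5.86%), and 1 rose and 0 fell with Helicon4neg_30mpk (2.21% and 2.62%). The gene that rose there was the disulfide isomerase PDIA5, which rose by 0.47 (limma adjusted p = 0.000713) from 33.3 ± 3.40 CPM (SD, n = 10) to 46.7 ± 6.14 (n = 8) and was 0.73 lower with Helicon4_30mpk than with Helicon4neg_30mpk (adjusted p = 5.48e-07). FKBP11, a prolyl isomerase of secretory cells, fell by 0.65 at 100 mpk (adjusted p = 6.68e-06). Of 28 other degradation and glycan processing factors 9 fell and 1 rose at 100 mpk (15.9% and 14.3% of all genes), with MOGS, the glucosidase that starts glycan trimming, lower by 0.56 (adjusted p = 7.59e-06). At 30 mpk 1 of the 28 fell and 0 rose, fewer than the shares of all genes (5.22% and 5.86%). Of 42 other translocation, oligosaccharyltransferase and COPII genes 7 fell and 1 rose at 100 mpk, with the fallers near the 15.9% of all genes, and 6 fell and 0 rose at 30 mpk (5.22% and 5.86%). Among them SSR3, a subunit of the translocon-associated complex, fell by 0.82 and 0.55 (adjusted p = 2.7e-08 and 1.96e-05), and the oligosaccharyltransferase subunit RPN1 by 0.51 and 0.33 (adjusted p = 3.66e-07 and 0.000224).

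A list of 28 measured genes joined the PERK and ATF4 arm with other stress regulators, among them NFYA and BCL2L11. Of these 10 fell and 2 rose at 100 mpk (15.9% and 14.3% of all genes), and 8 fell and 2 rose at 30 mpk (5.22% and 5.86%). With Helicon4neg_30mpk 1 of the 28 rose and 0 fell, near the shares of all genes (2.21% and 2.62%), with 12 differences positive and 16 negative. The gene that rose was DDIT3 (CHOP), a transcription factor downstream of ATF4, by 0.76 ± 0.18 (limma adjusted p = 0.0133). Its level went from 31 ± 12.6 CPM (SD, n = 10) to 51.9 ± 14.4 (n = 8). Between the compounds at 30 mpk 7 of the 28 were lower with Helicon4 and 3 higher (7.31% and 7.78% of all genes), DDIT3 lower by 1.03 (adjusted p = 0.000705). The 2 that rose at 100 mpk were NFYA, a subunit of the factor that binds CCAAT boxes (0.74, adjusted p = 1.06e-05), and the apoptosis gene BCL2L11 (0.45, adjusted p = 0.000169). Of 25 cytosolic and mitochondrial heat shock genes 4 fell and 0 rose with Helicon4neg_30mpk (2.62% and 2.21% of all genes). HSP90AA1, the inducible cytosolic HSP90, fell there by 0.56 ± 0.09 (adjusted p = 0.000674), from 1929 ± 265 to 1310 ± 198 CPM, and HSPA8, HSPD1 and DNAJA1 fell by 0.42, 0.29 and 0.41. At 100 mpk 3 of the 25 rose and 3 fell, counts near the shares of all genes (14.3% and 15.9%). Between the doses 4 of the 25 were higher at 100 mpk and 0 lower (1.74% and 1.86% of all genes), HSPA8 by 0.52 (limma adjusted p = 0.0235).

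Markers of other cell types moved as well, and their part in these results was not tested. Of 6 markers of other secretory cells of the gut, ATOH1 and DEFA5 were measured, and their summed level was 51.7 to 182 CPM with vehicle, 45.6 to 165 with Helicon4neg_30mpk, 7.87 to 12.6 with Helicon4_30mpk and 5.03 to 8.67 with Helicon4_100mpk. Most of that sum was DEFA5, a defensin of Paneth cells, at 48.8 to 179 CPM with vehicle and 0.854 to 3.59 with Helicon4_100mpk, while ATOH1, the factor that specifies secretory cells, was called higher at both doses. The endothelial markers CLDN5 and EGFL7, the measured 2 of 7, summed to 38.7 to 94.2 CPM with vehicle, 40 to 146 with Helicon4neg_30mpk, 31.3 to 52.7 with Helicon4_30mpk and 23.9 to 39.2 with Helicon4_100mpk, and both were called lower at 100 mpk. In the same order of groups the measured 5 of 10 fibroblast markers summed to 30.6 to 44.1, 24.7 to 46.5, 41.4 to 53.5 and 42.5 to 52.2 CPM. At 100 mpk COL1A1 and PDGFRA were called higher and PDGFRB lower. The 4 of 8 leukocyte markers summed to 27.2 to 44.5, 16.7 to 41.9, 25.5 to 36.3 and 26.5 to 38.7 CPM, with ITGAM called higher and CTSS lower at 100 mpk. The 3 of 5 neuroendocrine markers summed to 74.3 to 138, 76.9 to 99.5, 91.8 to 119 and 63.2 to 211 CPM, most of it ENO2, and the other 2, SYP and NCAM1, were called lower at 100 mpk. The other markers of these lists were not analysed here.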

How the data were processed

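PolyA RNA from 29 tumors was sequenced, and the labels' protocols name 2 library kits without saying which made these libraries. The submitters' processing notes list Trimmomatic 0.39 for trimming, STAR 2.7.7a, Subread's featureCounts 2.4.2 and edgeR 4.0.2, with GRCh38 as the build. Settings and annotation are not given in the sources used here. No mouse genome is named, and reads of host cells may sit under human symbols. The authors deposited a scaled signal per gene, in which read counts were divided by an effective library size; its columns sum to 0.92 to 1.26 M. All values (100%) came out as whole reads with a tolerance of 0.05 reads, from which depths of 26.8 to 61.6 M reads followed. Gene lengths, also deposited by the authors, gave levels per kilobase.

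Groups were taken from the labels. The 13373 of 13492 genes that reached 1 CPM in 5 or more libraries, all 37 members included, entered limma 3.58.1 (R 4.3.3) on the log2(CPM + 1) scale. One model held all 4 groups without covariates, using trended and robust variance shrinkage. Two-sided p values went through Benjamini-Hochberg adjustment across every gene tested, and 0.05 was the threshold. The members and lists were chosen with earlier results of these data known. Every member is described; from 5 further lists at most 4 genes per comparison, those with the smallest adjusted p under 0.05, could be named, and some of these are printed. Marker genes are given as sums. Library measures were compared by exact permutation tests in scipy 1.17.1, and motifs were searched in RefSeq windows of GRCh38.p14.

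Other settings tried were a smaller pseudocount (0.1), the filter dropped or raised to 5 CPM, TMM factors, limma without trend and robust fitting, the 2 groups alone, blocks for replicate number or title code, libraries left out, and edgeR 4.0.16 and DESeq2 1.42.0 on recovered reads. The length slope as a covariate and the 2 libraries left out together were chosen after seeing the data. Replicate numbers did not pair the libraries. The model was tested on simulated data.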

Additional observations from a re-analysis of the deposited data

Results flagged for a closer look

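Over the 148 combinations of gene and group, 21 held a library that stood outside its group by Dixon's criterion at the 95% level, which chance flags in about 1 in 20 groups. Of the 21, 16 lay in Helicon4neg_30mpk library 2. There 11 genes were lowest in their group, namely HYOU1 at 107 CPM, DNAJB9 at 8.93, DNAJC10 at 64.5, CANX at 292, PDIA6 at 183, P4HB at 347, SEL1L at 31.7, EDEM3 at 4.58, SEC24D at 10.6, EIF2AK3 at 22.5 and PPP1R15B at 43.2. In the same library 5 genes were highest, namely SDF2L1 at 134 CPM, MANF at 306, CRELD2 at 74.8, EDEM2 at 50.2 and SEC61B at 275. The 11 had a median transcript length of 6235 bases and the 5 of 1919, against 5165 over the 37 genes. The cause was not tested.

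The other 5 were spread over the groups. HYOU1 was lowest in vehicle library 6 at 121 CPM, and EIF2AK3 in Helicon4_100mpk library 1 at 21.9. PPP1R15A was highest in vehicle library 4 at 127 CPM and in Helicon4_30mpk library 2 at 44.7. DERL3 was highest in Helicon4_30mpk library 5 at 24.2 CPM, in a group that otherwise spanned 21.3 to 21.9.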

How the results depend on the processing

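With the title code as a block 0 genes were lower at 100 mpk and 0 at 30 mpk against vehicle, 2 between the compounds and 0 between the doses, and 0 were higher with Helicon4neg_30mpk. SDF2L1 then reversed without a call (0.19 at 100 mpk, 0.046 at 30 mpk), as did CRELD2 at 100 mpk (0.35). Both reversals run through SH7080, which holds Helicon4neg_30mpk library 2, where both genes were highest of their group. Without the 2 libraries that stood apart, 16 were lower at 30 mpk and 4 between the doses (8.51% and 4.32% of all genes). With the length slope as a covariate 17 were lower at 30 mpk, 27 between the compounds and 5 between the doses. Of all genes 8.79%, 13.5% and 8.19% were lower in that fit, against 5.22%, 7.31% and 1.86% without the covariate. With Helicon4neg_30mpk the covariate gave 10 higher and 1 lower. Of all genes 8.83% were higher and 9.01% lower there, against 2.21% and 2.62% without the covariate. DNAJC10 at 30 mpk turned to -0.19 with the covariate (limma adjusted p = 0.0499). A fit of 2 groups left 2 higher with Helicon4neg_30mpk (1.25% of all genes). Between the doses 2 were lower with a pseudocount of 0.1, with limma without trend and robust fitting and with edgeR, and 3 with DESeq2. The shares of all genes were 1.92%, 1.89%, 1.79% and 3.03% in that order. The cause was not tested.

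Leaving out 1 library in turn gave 12 to 16 lower at 100 mpk (12 without Helicon4_100mpk library 3), 6 to 11 at 30 mpk (6 without Helicon4_30mpk library 1), 13 to 22 between the compounds (22 without Helicon4neg_30mpk library 2) and 1 to 3 between the doses (3 without Helicon4_100mpk library 5, 2 without Helicon4_30mpk library 6). With Helicon4neg_30mpk 3 to 11 were higher (3 without vehicle library 5 or Helicon4neg_30mpk library 3 or 4, 11 without library 2) and 0 to 1 lower.

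The replicate number as a block gave 16 and 11 lower against vehicle (17.9% and 5.44% of all genes), 13 between the compounds (5.97%) and 4 higher with Helicon4neg_30mpk (1.84% lower and 1.65% higher of all genes). It ended the calls of HSPA5 at 30 mpk, P4HB, WFS1 with Helicon4neg_30mpk, and DNAJC3 and SEC24D between the compounds. It added MANF at both doses (-0.57 and -0.63) and CRELD2 at 30 mpk (-0.56). The numbers were not treated as pairs, since in 35 pairs with the same number residuals correlated between -0.70 and 0.52, and 0 of 27 libraries correlated best with their own number.

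Across the settings the median of all genes moved by -0.01 to 0.01. Depth limits the least abundant genes most, with EDEM3 at 98 reads in its lowest library.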
